A study of Mus musculus with 6 samples.

Results

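Ccl5-positive CD8 T cells of the mouse lung were described here across 6 mice with bleomycin injury. A barcode was taken as a cell with at least 1000 unique molecular identifiers (UMIs, counted transcripts), at least 500 genes and at most 10% of its UMIs in mitochondrial genes. A cell was taken as a Ccl5-positive CD8 T cell with at least 2 UMIs over Cd3e, Cd3d and Cd3g, at least 1 over Cd8a and Cd8b1, at least 2 of Ccl5, and 0 of Cd4 and of Cd79a. This gate kept 761 of 25704 cells, and 761 of the 2046 CD8 T cells that met the other criteria at any Ccl5 count. These cells were chosen by their counts of the 8 gate genes, which are given below only as a description. The remaining CD8 T cells comprised 1155 with 0 Ccl5 UMIs and 130 with exactly 1.

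All mice carried the hCTLA4 genotype, a knock-in of human CTLA4 obtained from genOway, and were 12-week-old males. Each received bleomycin by the oropharyngeal route at 1.25 U/kg in 2 doses given 2 weeks apart, a lung injury that is followed by fibrosis. From day 21 after the second dose, 3 mice received an IgG1 isotype control antibody and 3 received ipilimumab, an antibody against human CTLA4 whose samples carry the label anti-CLTA4 mAb. Both were given at 5 mg/kg by intraperitoneal injection 2 times a week for 4.5 weeks. Right lungs were dissociated with collagenase and DNase, and 1 droplet-based 3′ library was made per mouse without a sort, so that every gate described here was made in the data. No uninjured mouse was included. The methods for histology state that lungs were perfused with saline, and no label marked cells that remained in blood vessels.

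CD8 T cells kill other cells through the perforin and granzyme pathway and through Fas ligand, and secrete interferon-gamma and chemokines. Ccl5 is a chemokine that draws leukocytes to tissue, and is made by antigen-experienced T cells and by natural killer (NK) cells, while naive CD8 T cells make little of it. Ctla4 is a brake on T cell activation that competes with the costimulatory receptor Cd28 for their shared ligands, and it is the protein that ipilimumab binds.

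The libraries held between 37666042 and 48612412 UMIs, and between 3344 and 5170 cells passed the filters. One library stood apart. In ipilimumab replicate 1, 22056 barcodes had at least 100 UMIs, against 4834 to 6230 in the other 5 libraries, and 80.8% of its UMIs lay in cells, against 92.1% to 92.3%. Pairs of libraries shared between 0 and 9 cell barcodes.

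IgG1 replicates 1 to 3 held 132, 100 and 125 Ccl5-positive CD8 T cells, and ipilimumab replicates 1 to 3 held 167, 125 and 112. Summed over cells, these were 1274357, 1477286 and 1517755 UMIs in the IgG1 mice and 1777916, 1394770 and 1345055 in the ipilimumab mice. Median depth per cell ran from 7955 UMIs in ipilimumab replicate 1 to 10892 in IgG1 replicate 3. Ccl5-zero CD8 T cells, the main comparison population, had medians between 8884 and 11274.

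The identity of the gated cells was checked with genes outside the gate. A T cell receptor alpha or beta constant transcript was found in 753 of 761 cells (98.9%). The gamma-delta constant gene Trdc was found in 29 cells, of which 9 had no Trac. Ncr1, the NK cell receptor, was found in 17 cells, Zbtb16, the factor of innate-like T cells, in 28, and Foxp3, the factor of regulatory T cells, in 5. Nkg7, a protein of cytotoxic granules, was detected in 724 cells (95.1%), between 91.0% and 97.0% per mouse. It was found in 58.0% to 71.6% of Ccl5-zero CD8 T cells and 95.9% to 100% of NK cells (gated below). In B cells, which had median depths of 5257 to 6688.5 UMIs, it was found in 0.738% to 1.90%. Klrc1, which encodes the inhibitory receptor NKG2A, was detected in 297 cells (39.0%), between 25.6% and 48.8% per mouse. It was found in 0% to 2.47% of Ccl5-zero CD8 T cells, 38.7% to 51.2% of NK cells and 0.141% to 0.464% of B cells. As a description of the gate itself, 544 of the 761 cells had UMIs of both Cd8a and Cd8b1, 156 of Cd8b1 alone and 61 of Cd8a alone.

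Transcripts of other lung cells were found in the gated cells. The macrophage gene Lyz2 had a UMI in 25.8% to 43.8% of the cells of a mouse and reached 1676 CPM (UMI counts scaled to a common total) in ipilimumab replicate 1. It gave 564, 1310 and 292 UMIs in the summed IgG1 cells and 2980, 820 and 470 in the ipilimumab cells, while C1qa, which defines mature macrophages, was found in 1 cell. The neutrophil gene S100a8 gave 3, 206 and 5 against 41, 329 and 4 UMIs, the alveolar type 2 gene Sftpc 0, 1 and 0 against 17, 13 and 7, and the fibroblast gene Col1a1 2 UMIs in all. Cells with 3 or more UMIs over 38 markers of other types numbered 51, 45 and 61 in the IgG1 mice and 73, 63 and 49 in the ipilimumab mice. Those with 10 or more over 37 of the markers, a limit chosen after the data were seen, numbered 2, 7 and 4 against 17, 7 and 2. The shares of Ccl5-positive CD8 T cells and the tests on summed counts below were repeated without the cells of each kind. The subsets and the detection of single genes per cell were not.

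Ccl5 counts in the gated cells spread over a wide range above the floor that the gate set. Among the 2046 CD8 T cells, 1155 had 0 Ccl5 UMIs, 130 had 1, 68 had 2 to 3, 53 had 4 to 7 and 43 had 8 to 15. There were 80 cells at 16 to 31, 105 at 32 to 63, 191 at 64 to 127, 171 at 128 to 255 and 50 at 256 or more. These bins double in width, and the number of cells per single UMI value fell throughout, from 34 at 2 to 3 UMIs to 5.0 at 16 to 31 and 1.34 at 128 to 255. The median per gated cell was 67, 78.5 and 70 UMIs in the IgG1 mice and 95, 81 and 42.5 in the ipilimumab mice. The gate fixed that these values exceed 1, and no test was made on them. Ccl5 lies on chromosome 11, at chr11:83525778-83530518 on the minus strand of GRCm38.

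**Figure D1:**
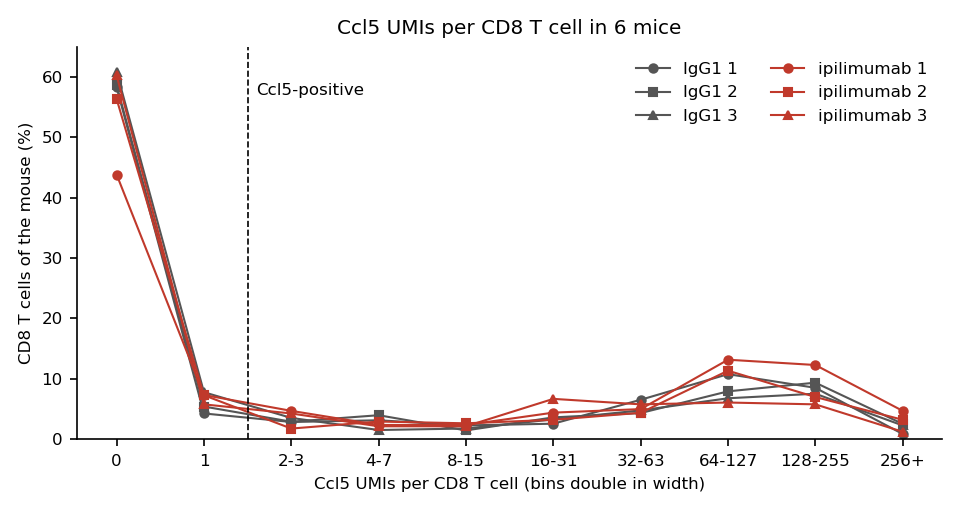
Percent of the CD8 T cells of each mouse (vertical axis) by Ccl5 UMIs per cell (horizontal axis, bins that double in width), with 1 line per mouse, IgG1 in grey and ipilimumab in red, and the gate as a dashed line. Most cells lie at 0 UMIs (1155 of 2046 over all mice), and the bins from 64 to 255 UMIs hold more than those from 2 to 15 on this widening scale. The line of ipilimumab replicate 3 is flat, at 19 to 22 cells per bin from 16 to 255 UMIs.

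Cells just inside the gate were compared with those just outside it, as a description with 95% counting intervals. Pooled over mice, the 130 cells with 1 Ccl5 UMI had 199.8 CPM of Nkg7, the 39 cells with 2 had 204 and the 627 cells with 10 or more had 911. Gzma, granzyme A, was at 2.36, 3.55 and 1239 CPM in the same order. Lef1, a factor of naive T cells, was at 1658, 1452 and 737 CPM, and Ccr7, the receptor for entry into lymph nodes, at 441, 460 and 157. Between cells with 1 and with 2 Ccl5 UMIs the intervals overlapped for Nkg7, Gzma and Ccr7. They did not for Lef1 (1597 to 1720 against 1354 to 1555), for Klrd1, a partner chain of NKG2 receptors (91.2 to 123 against 124 to 190), or for Ly6c2, a surface protein of memory cells (212 to 258 against 286 to 383). The gated cells included 134 with 2 to 9 UMIs, in which Gzma was at 43.6 CPM. Of its 91 UMIs there, 84 came from IgG1 replicate 2, and without that mouse the level was 4.27 CPM. B cells, which should lack Ccl5, held at least 2 of its UMIs in 0.519%, 0.246% and 0.773% of cells in the IgG1 mice and in 2.59%, 0.930% and 1.25% in the ipilimumab mice.

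Granzyme transcripts and Ccr7 transcripts divided the gated cells. The 4 exclusive subsets given here were set by UMIs of Gzma or Gzmb, which encode granzymes, and of Ccr7, as a description without a test. As a background, 1.32% to 3.05% of B cells had a UMI of Gzma. Most B cells had a UMI of Ccr7, so they give no background for that gene. The first, with a granzyme and no Ccr7, held 302 cells and made up 43.9%, 41.0% and 33.6% of the gated cells in the IgG1 mice and 55.1%, 36.8% and 20.5% in the ipilimumab mice. Its summed cells had 14489 to 27206 CPM of Ccl5 over the 6 mice, 535 to 1084 of Zeb2, 254 to 473 of Tbx21 (the factor T-bet), 74.6 to 161 of Cx3cr1 and 44.6 to 114 of Klrg1, which are genes of effector cells, and 43.3 to 77.3 of Tcf7, the factor of memory cells.

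The second subset, with Ccr7 and no granzyme, held 259 cells and made up 34.1%, 33.0% and 35.2% against 23.4%, 35.2% and 48.2%. Ccl5 was lower here, at 1383 to 2664 CPM, with 247 to 421 CPM of Tcf7, 394 to 598 of Il7r, the receptor for the survival cytokine IL-7, and 0 to 2.11 of Klrg1. Both kinds of transcript were found in 69 cells and neither in 131. The cells with neither carried 60.7 to 133 CPM of Cxcr6, a receptor of tissue T cells, 116 to 418 of Ctla4 and 21.7 to 152 of Pdcd1, which encodes the inhibitory receptor PD-1. Cells of the second subset had more UMIs (medians of 12085 to 14382) than those of the first (5796 to 7686). Mki67, a gene of dividing cells, was found in 73 cells (9.59%), and its share was highest, at 18%, in IgG1 replicate 2. The Mki67 cells of that mouse had a median of 30694.5 UMIs, against 8296 to 19929 in the other mice. All gated cells of that mouse had a median of 10527, and the part of depth in this share was not tested.

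The shares of Ccl5-positive CD8 T cells differed by less between ipilimumab and IgG1 mice than among the mice of a group. They were 2.91%, 2.31% and 3.74% of all cells in the IgG1 mice and 3.23%, 3.0% and 2.68% in the ipilimumab mice (2.99% ± 0.715 against 2.97% ± 0.277, SD, n = 3 mice each). The difference of -0.0175 percentage points gave p = 1 in an exact two-sided permutation test, for which 3 mice against 3 allow no p below 0.1. As a share of CD8 T cells they were 37.4%, 36.0% and 31.3% against 48.8%, 36.3% and 33.9% (34.9% ± 3.17 against 39.7% ± 8.0, exact permutation p = 0.5). Ipilimumab replicate 1 carried this difference, which was 4.80 percentage points with it and 0.241 without it. The share of granzyme-only cells lay above the IgG1 range in ipilimumab replicate 1 and below it in replicate 3. Shares describe cells recovered by dissociation, and fewer cells of one type cannot be told apart from more of another.

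**Figure D2:**
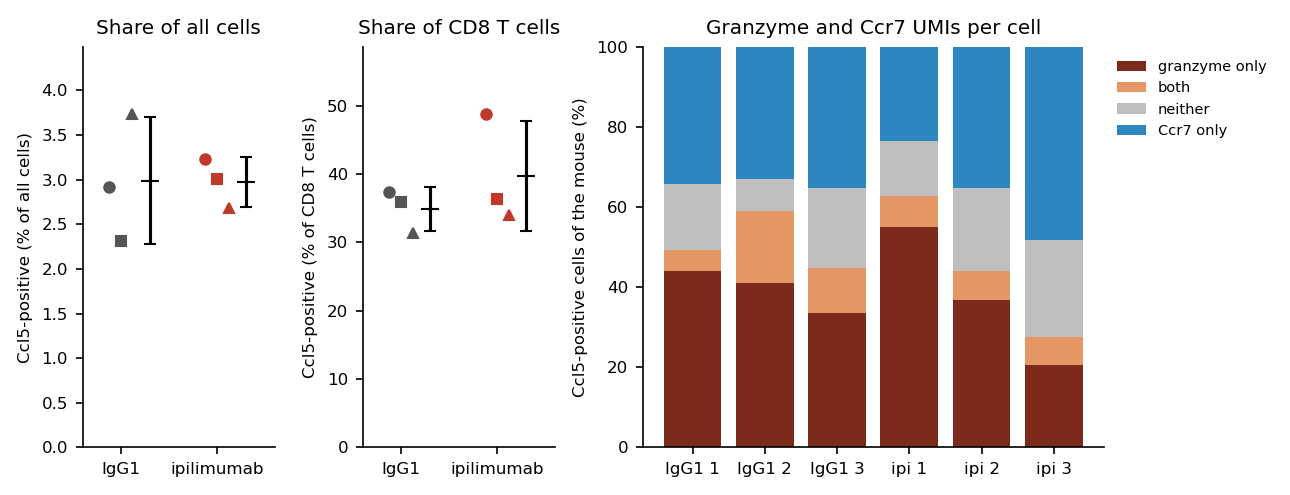
Ccl5-positive CD8 T cells as a percent of all cells and of CD8 T cells, and the 4 granzyme and Ccr7 subsets as stacked percents of the gated cells of each mouse, with 1 point or bar per mouse and lines for the mean and SD of 3 mice. The 2 groups overlap in both shares, and the subsets vary among the 3 ipilimumab mice (granzyme only, 20.5% to 55.1%) more than among the IgG1 mice (33.6% to 43.9%).

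The comparison with Ccl5-zero CD8 T cells of the same mice asked what else the gated cells express. Cytotoxic genes, effector transcription factors and most homing receptors were higher in the Ccl5-positive cells, and naive and memory genes were lower. Sums of UMIs per mouse and population entered edgeR's quasi-likelihood test with the mouse as a block and Benjamini-Hochberg adjustment over all genes. Genes were called where the adjusted p was below 0.05 and the log2 fold change exceeded 0.3 in either direction. Of 8802 genes, 2044 were called (23.2%), 1116 higher (12.7%) and 928 lower (10.5%). With library sizes alone in place of trimmed-mean scaling, the median log2 fold change moved by 0.12 and the split became 1638 higher and 584 lower. The 8 genes of the gate were left out of all counts. A gene that passed the filter on low counts only through the population where it is high was selected in part by its difference. Most lists are therefore also given over the genes that met the minimum in both populations (10 UMIs at the median library size, in 6 of 6 mice). Of all genes, 7153 met it in both, 863 of them higher and 798 lower. CPM values in this and the following comparisons were scaled within each comparison, so that a gene's level differs slightly between them.

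The cytotoxic list was higher in 14 of its 18 tested genes and lower in 0, with a median log2 fold change of 1.83 against -0.00 over all genes. Over the 9 genes that met the minimum in both populations, 5 were higher and 0 lower, with a median of 0.79. The other 9 met it only in Ccl5-positive cells and were selected in part by their difference, so the count and median over all 18 do not describe the list. Gzma, a granzyme that enters target cells through perforin pores, ran from 432 to 1306 CPM over the 6 mice (median 987) in Ccl5-positive cells and from 1.93 to 11.8 CPM (median 4.04) in Ccl5-zero cells. The 2 populations did not overlap in any mouse, and the log2 fold change was 7.45 (SE 0.213). Since Gzma met the minimum only in Ccl5-positive cells, it was selected in part by its difference, and no p is given. Gzmb ran from 77.9 to 275 CPM against 0.525 to 13.1 (log2 fold change 5.73), and Gzmk, a granzyme of memory-like cells, from 18.5 to 60.7 against 0 to 1.87 (6.58). Fasl, the death ligand, had a median of 95.1 CPM against 4.19 (4.65). Gzmb, Gzmk and Fasl met the minimum only in Ccl5-positive cells as well. Nkg7 was detected in both populations, at a median of 765 CPM against 167 (2.13). Among secreted proteins, 5 of 11 tested genes were higher and 1 lower, and 1 higher and 1 lower of the 5 that met the minimum in both. Ccl4, a chemokine encoded 132 kb from Ccl5 on chromosome 11, had a median of 265 CPM against 2.45 (6.33), and Ccl3, encoded 13.2 kb from Ccl4, had 17.8 against 2.35 (2.98). Ifng, interferon-gamma, had a median of 89.9 CPM against 2.75 (4.74), and Xcl1, which attracts cross-presenting dendritic cells, 24.7 against 0.809 (4.10). Ccl4, Ccl3, Ifng and Xcl1 met the minimum only in Ccl5-positive cells. Ltb, lymphotoxin beta, was the member that was lower (-0.61).

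All 12 tested NK-type receptor and adaptor genes were higher, of 26 on the list. The other 14 did not pass the filter, and 7 of the 12 met the minimum only in Ccl5-positive cells, so this count does not describe the list. Klrc1 ran from 83.8 to 139 CPM (median 121) in Ccl5-positive cells and from 0 to 3.79 (median 0.66) in Ccl5-zero cells, a log2 fold change of 6.36 (SE 0.352). Klrc2, which encodes the activating counterpart NKG2C 5.33 kb away, had a median of 66.9 CPM against 0.284 (7.04). Klre1 was at 69.0 against 0.59 (6.71) and Klrk1, which encodes the activating receptor NKG2D, at 132 against 3.57 (5.34). These genes lie together on chromosome 6 (chr6:128609227-131247362, GRCm38). Klrg1, a receptor of effector cells, gave 283 UMIs in Ccl5-positive cells and 2 in all Ccl5-zero cells, a ratio per UMI of 194 (95% counting interval 53.3 to 1612). S1pr5, a receptor for exit into blood that was named after its values were seen, gave 167 UMIs against 0, at least 76.4-fold higher at a floor of 3 UMIs over all Ccl5-zero cells.

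Effector and exhaustion transcription factors were higher in 17 of 20 tested genes and lower in 0 (median log2 fold change 1.40), and in 12 of the 15 that met the minimum in both populations (median 1.01). Tbx21 ran from 129 to 251 CPM (median 184) against 4.36 to 18.1 (median 7.86), a log2 fold change of 4.36 (SE 0.152). It met the minimum only in Ccl5-positive cells. Eomes, the related factor of memory cells, ran from 36.4 to 91.4 against 8.10 to 21.0 (2.16). Maf, Hopx and Nr4a2 were higher by 2.12, 1.84 and 1.45 on the log2 scale, and Maf met the minimum only in Ccl5-positive cells. Naive and memory genes were lower in 16 of 20 and higher in 0 (median -0.84), and lower in 15 of 19 with the minimum in both. Lef1 ran from 715 to 1095 CPM against 1865 to 2395 (-1.29), Ccr7 from 130 to 265 against 534 to 669 (-1.55), and Tcf7 from 146 to 262 against 328 to 485 (-0.84, adjusted p = 0.000238, edgeR quasi-likelihood). Igfbp4, which met the minimum only in Ccl5-zero cells, ran from 5.71 to 24.3 CPM against 123 to 165 (-3.30). Dapl1 ran from 30.4 to 89.5 against 181 to 245 (-1.99). None of these 5 overlapped between the populations, and all remained detected in Ccl5-positive cells.

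Receptors that place T cells or tune their response moved in both directions. Of 20 homing genes, 13 were higher and 4 lower (7 and 3 of the 13 with the minimum in both). Cx3cr1, the fractalkine receptor, had a median of 35.9 CPM against 3.45 (log2 fold change 3.32), and Itgal, the alpha chain of LFA-1, 201 against 73.8 (1.48). Of 20 cytokine receptors, 9 were higher and 8 lower (6 and 8 of 17). Il18rap, a chain of the IL-18 receptor, had a median of 181 CPM against 9.76 (4.22), Il12rb2, a chain of the IL-12 receptor, 177 against 38.2 (2.09) and Il2rb, the chain shared by the IL-2 and IL-15 receptors, 394 against 164 (1.26). Ifngr2, a chain of the interferon-gamma receptor, ran from 16.3 to 29.9 CPM against 131 to 183 (-2.84, SE 0.119), and Tgfbr2, the TGF-beta receptor, from 322 to 431 against 542 to 637 (-0.67). Tissue residency genes were higher in 7 of 11 and lower in 1 (3 and 1 of 6). Cxcr6 (1.66) and Rgs1 (1.98) were higher, whereas Itgae, which encodes the integrin CD103, was the lower one, at a median of 10.6 CPM against 33.8 (-1.58). Cx3cr1, Il18rap and Cxcr6 met the minimum only in Ccl5-positive cells.

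Inhibitory receptors, among them Klrc1 and Klrg1 of the NK-type list, were higher in 8 of 12 tested genes of 16 and lower in 1. Of the 12, 8 met the minimum only in Ccl5-positive cells, and over the 3 that met it in both, 0 were higher and 1 lower, so the first count does not describe the list either. Costimulatory receptors were higher in 6 of 10 and lower in 0 (5 and 0 of 9). Pdcd1 ran from 9.59 to 52.7 CPM (median 20.9) against 0 to 6.23 (median 2.68), a log2 fold change of 3.18. It met the minimum only in Ccl5-positive cells and was selected in part by its difference, so no p is given. Entpd1, an ectonucleotidase, had a median of 82.9 CPM against 12.1 (2.62) and Cd160 22.2 against 2.01 (2.98). Both of them met the minimum only in Ccl5-positive cells as well. Ctla4 ran from 116 to 364 CPM (median 227) against 121 to 230 (median 141), was higher in 5 of 6 mice, and was not called (0.53, SE 0.195, adjusted p = 0.0687, edgeR quasi-likelihood). It was called in 7 alternative settings, with values between 0.50 and 0.84. Icos, a costimulatory receptor encoded 62.1 kb from Ctla4, was higher (0.45, adjusted p = 0.0128) in 6 of 6 mice. Cd28, encoded 114 kb away, was higher by 0.47, Cd27 by 0.50 and Tnfrsf9, the receptor 4-1BB, by 1.88. Tnfrsf9 met the minimum only in Ccl5-positive cells. The call of Cd27 was lost when cells with 3 or more UMIs of other cell types' markers were left out. The mice carried human CTLA4 sequence while reads were aligned to the mouse genome, so that the Ctla4 value holds only reads that aligned to the mouse gene.

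Detection per cell was also compared for the drug target. Ctla4 was found in 322 Ccl5-positive cells (42.3%), between 31.8% and 57.1% per mouse, against 35.0% to 46.7% of Ccl5-zero cells and 5.33% to 6.61% of B cells. Both Ctla4 and Icos were found in 223 cells, and both Ctla4 and Pdcd1 in 78 of the 98 cells with Pdcd1. As CPM of the summed UMIs of a class, without further scaling, Ctla4 was at 118 to 382 in Ccl5-positive cells, 112 to 222 in Ccl5-zero cells, 557 to 1155 in CD4 T cells, 4.08 to 28.7 in NK cells and 16 to 39.0 in B cells. Barcodes under 100 UMIs, taken as empty droplets, had 171 to 265. Pdcd1 had another order, with 9.88 to 52.8 CPM in Ccl5-positive cells, 8.05 to 27.6 in CD4 T cells and 0 to 6.01 in Ccl5-zero cells, the first pair of which overlapped.

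**Figure D3:**
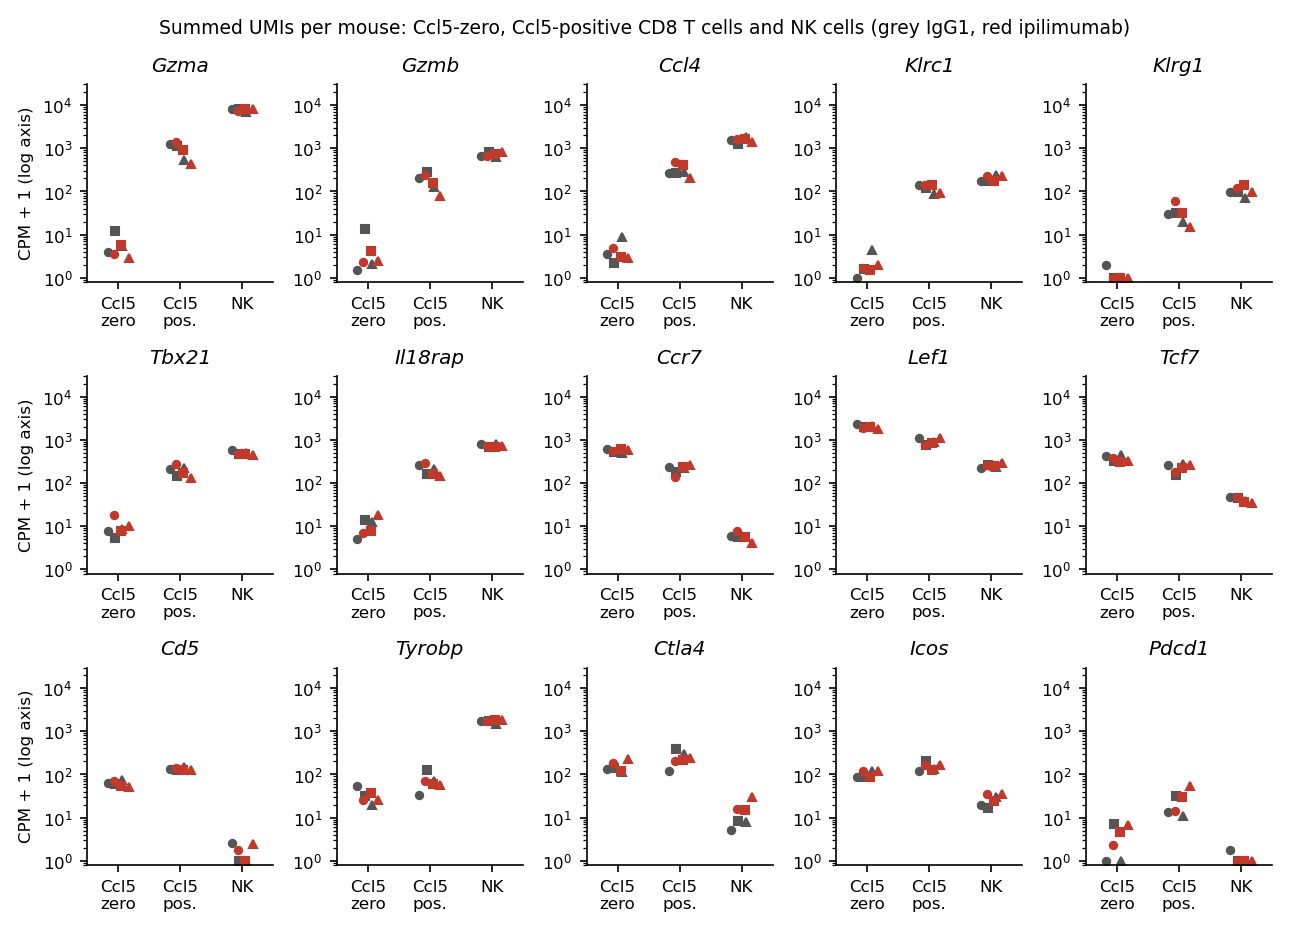
CPM of summed UMIs with 1 added, on a log axis, for 15 genes in Ccl5-zero CD8 T cells, Ccl5-positive CD8 T cells and NK cells, with 1 point per mouse (grey IgG1, red ipilimumab). Gzma in Ccl5-positive cells (433 to 1390 CPM without further scaling) stands below NK cells and above Ccl5-zero cells, whereas Ctla4 overlaps between both CD8 populations and is low in NK cells.

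T cell receptor signalling genes were higher in 14 of 26 and lower in 6. Cd6 and Cd5, brakes on receptor signals, had medians of 163 against 72.3 CPM (log2 fold change 1.22) and 128 against 63.1 (1.0), and Trac was higher by 0.38. Cell division genes were higher in 15 of 16 tested and lower in 0 (6 and 0 of the 7 with the minimum in both). Mki67, which met the minimum only in Ccl5-positive cells, ran from 25 to 175 CPM against 1.05 to 23.7 (2.41). Its highest value was that of IgG1 replicate 2. After cells with 3 or more UMIs of other cell types' markers were left out, 5 division genes were tested, of which 3 were higher and 1 lower. Actin and motility genes were higher in 14 of 17, with Lgals1 at a median of 680 CPM against 85.5 (2.98) and S100a6 at 561 against 91.0 (2.81), and glycolysis genes in 6 of 14, with Gapdh higher by 0.64.

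Interferon-stimulated genes gave 2 higher and 7 lower of 22 (2 and 5 of 18 with the minimum in both). This list had no fixed direction, since library sizes alone gave 5 and 5, and leaving out cells with 3 or more UMIs of other markers gave 5 higher and 3 lower of 16. Immediate early genes gave 2 and 5 of 16, and library sizes alone gave 2 and 2. MHC class I presentation genes gave 2 and 0 of 13, and T cell receptor constant genes 1 and 0 of 4. Besides those named, the largest falls belonged to Gria3, a glutamate receptor subunit (-3.50), Wnt5b, a Wnt ligand (-2.55), Cnn3, an actin-binding protein (-2.50), Auts2 (-2.29), Slc6a19, an amino acid transporter (-2.27), Ntrk3, a neurotrophin receptor (-2.20), Sorcs2 (-2.03), Utp14b (-1.99) and Igf1r, the receptor for IGF-1 (-1.98). Of these, Gria3, Wnt5b, Cnn3, Slc6a19, Sorcs2 and Utp14b met the minimum only in Ccl5-zero cells. The largest rises outside the lists belonged to Tmem163 (6.51), Stk32c (5.29) and Kcnj8, a potassium channel (5.26), which met the minimum only in Ccl5-positive cells. DESeq2 called 1278 genes in this comparison.

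**Figure D4:**
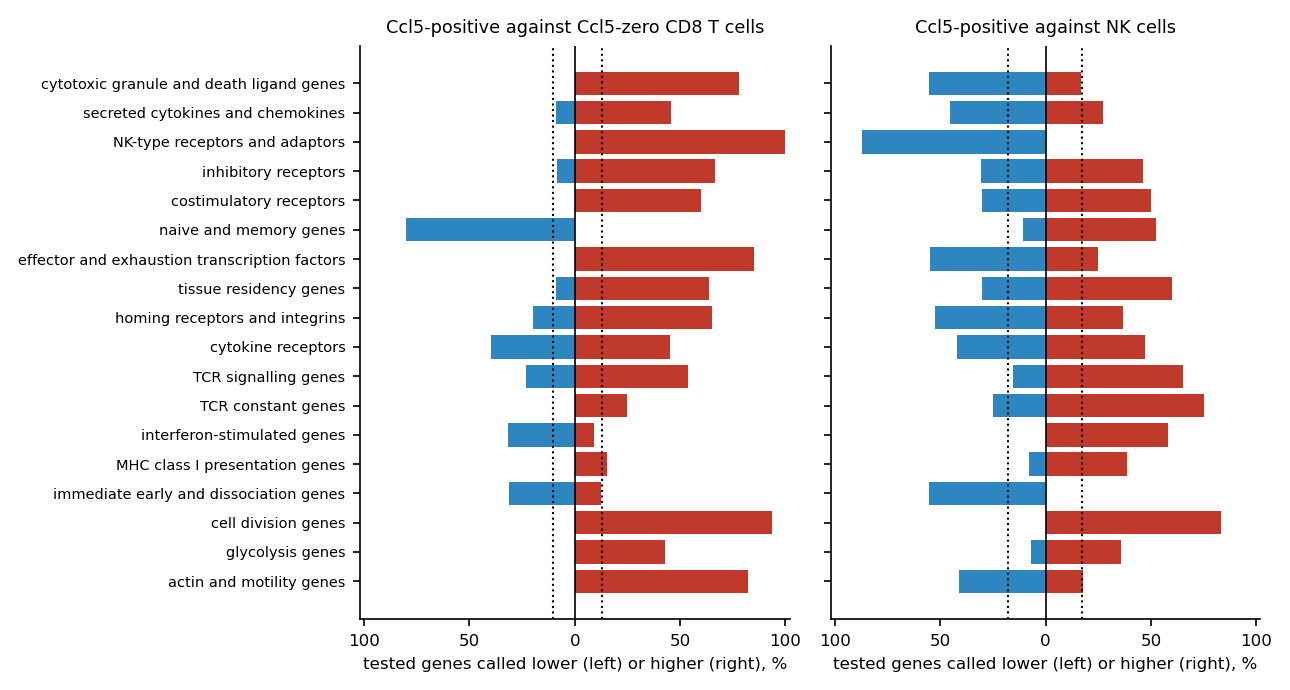
Percent of the tested genes of each of the 18 lists that were called lower (blue, to the left) or higher (red, to the right) in Ccl5-positive CD8 T cells, against Ccl5-zero CD8 T cells and against NK cells, with dotted lines at the percent of all tested genes called in that direction. Naive and memory genes are lower against Ccl5-zero cells (16 of 20) and higher in 10 of 19 against NK cells, of which 7 genes met the minimum count only in the CD8 T cells. The bars of NK-type and inhibitory receptors, and of cytotoxic genes against Ccl5-zero cells, rest in large part on such genes.

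NK cells of the same lungs, which also make Ccl5, served as a second comparison. They were gated by at least 1 UMI of Ncr1 and 0 of the Cd3 genes and of Cd79a, and numbered 1223, with median depths of 5871 to 6911 UMIs. Ccl5-positive CD8 T cells had most cytotoxic genes at lower levels than NK cells, and had more of the T cell receptor machinery, while inhibitory receptors differed in both directions. Of 8753 genes, 3100 were called (35.4%) by the same test, 1526 higher (17.4%) and 1574 lower (18%) in the CD8 T cells. Library sizes alone moved the median by -0.098 and gave 1169 higher and 2048 lower. The minimum was met in both populations by 6878 genes, 1133 of them higher and 1207 lower.

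Prf1, perforin, ran from 64.8 to 86.0 CPM in Ccl5-positive CD8 T cells and from 697 to 813 in NK cells, a log2 fold change of -3.35 (SE 0.0776, adjusted p = 8.4e-12, edgeR quasi-likelihood). Gzma was lower by 3.06 on the log2 scale, at 468 to 1408 CPM against 6832 to 8187. Ccl3 (-4.11), Ccl4 (-2.22) and Nkg7 (-1.21) were lower too, each in 6 of 6 mice. In all, 10 of 18 cytotoxic genes were lower and 3 higher, and the 3 higher ones met the minimum only in the CD8 T cells. Of 25 NK-type receptors and adaptors besides Ncr1, which the gate on NK cells used, 23 were tested, 20 were lower and 0 higher. Since 10 of them met the minimum only in NK cells, this count does not describe the list, and 9 of the 11 that met it in both were lower. Klra8 was at 0.835 to 21.0 CPM against 818 to 990 (-6.00). Klrb1c (-4.86) and the signalling adaptors Tyrobp (-4.59) and Fcer1g (-4.34) were lower too, and Klrg1 was lower by 1.68. Irf8 (-5.52), Tbx21 (-1.30) and 9 other transcription factors of 20 were lower, against 5 higher, and Il2rb was lower by 1.61.

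T cell receptor signalling genes were higher in 17 of 26 and lower in 4, and in 12 and 4 of the 21 that met the minimum in both populations. Themis, which sets receptor thresholds, had a median of 631 CPM against 0 (4 UMIs in all NK cells, log2 fold change 10.22). Cd5 (7.75), Cd6 (6.84), Bcl11b, the T lineage factor (5.12), Lat (2.72) and Trac (4.84) were higher. Of these and Themis, all but Lat met the minimum only in the CD8 T cells. Fam169b (7.58), St8sia1, a sialyltransferase (6.73), and Adam19, a metalloprotease (6.48), were among the largest rises outside the lists. Of naive and memory genes, 10 of 19 were higher and 2 lower, but 7 of the 19 met the minimum only in the CD8 T cells, and of the 11 that met it in both 3 were higher and 2 lower. Ccr7 was at a median of 241 CPM against 4.57 (log2 fold change 5.59) and Il7r at 350 against 12.3 (4.78). Both of them met the minimum only in the CD8 T cells. S1pr1, the receptor for exit from tissue, was at 266 against 27.0 (3.17) and Tcf7 at 258 against 40.7 (2.55). Dapl1 gave 498 UMIs against 2, a ratio of 248 (95% counting interval 68.3 to 2054).

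Inhibitory receptors were higher in 6 of 13 tested genes and lower in 4, and in 1 and 3 of the 7 with the minimum in both. Costimulatory receptors were higher in 5 of 10 and lower in 3 (4 and 3 of 9). Ctla4 ran from 126 to 394 CPM against 3.94 to 27.8 (log2 fold change 4.35), Icos from 129 to 208 against 15.8 to 34.6 (2.65) and Cd28 from 426 to 724 against 76.2 to 161 (2.30). Pdcd1 gave 212 UMIs in the CD8 T cells and 1 in the NK cells, a ratio of 211 (95% counting interval 37.5 to 8380). Btla, another inhibitory receptor, was higher by 4.24, and Cxcr6, of the homing and tissue residency lists, by 4.32. Ctla4, Pdcd1, Btla and Cxcr6 met the minimum only in the CD8 T cells. Of 19 tested homing genes, 7 were higher and 10 lower, and of 10 tested tissue residency genes 6 were higher and 3 lower. With the minimum in both populations, 3 of 15 homing genes were higher and 10 lower. Of the 4 tissue residency genes that met it in both, 1 was higher and 3 were lower. Interferon-stimulated genes were higher in 11 of 19 and lower in 0 (7 and 0 of 12 with the minimum in both), and immediate early genes were lower in 10 of 18 and higher in 0. Division genes were higher in 15 of 18 (4 of 6 with the minimum in both), but in 1 of 8 tested after cells with 3 or more UMIs of other markers were left out. The largest falls outside the lists were in Klrb1b (-6.57), Serpinb9b, a granzyme inhibitor (-6.43), Klrb1a (-6.24), Khdc1a (-6.20), Eya1 (-6.18), Cma1, a chymase (-6.03), Dab2ip (-6.02), Phactr3 (-5.82), Clnk, an adaptor protein (-5.78), and Aoah, an enzyme that inactivates endotoxin (-5.78).

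The study's own contrast, ipilimumab against IgG1, was then made within the Ccl5-positive CD8 T cells over 3 mice against 3. No gene was called of 8822 tested (0%) by edgeR's quasi-likelihood test. At an unadjusted p under 0.05 there were 267 genes (3.03%), and the mice of the 2 groups did not overlap in 737 genes (8.35%). DESeq2 called 1 gene, with 115 at an unadjusted p under 0.05, and edgeR with no filter on low counts called 123 (86 higher, 37 lower). On simulated counts for this comparison, 58% of genes changed 2-fold and 96% of genes changed 4-fold were called. The changes were set only in genes with higher counts, so these rates do not cover tested genes with few UMIs. Changes of 2-fold or less were thus often not detectable at this depth. Values below are given as measured.

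Ctla4, the gene of the drug target, was at 122, 375 and 299 CPM in the IgG1 mice and 201, 221 and 254 in the ipilimumab mice. The ipilimumab values lay within the IgG1 range (265 ± 130 against 225 ± 26.4, SD, n = 3, log2 fold change -0.24, SE 0.321, adjusted p = 0.999, edgeR quasi-likelihood), and the sign turned without IgG1 replicate 2 (0.08). Icos was at 124, 198 and 137 against 161, 133 and 170 (0.01), and Tcf7 at 274, 150 and 275 against 172, 231 and 265 (-0.07), overlapping in both cases. Pdcd1 was at 12.9, 29.9 and 10.0 CPM against 13.2, 30.5 and 55.2 (0.86, SE 0.528, adjusted p = 0.999, edgeR quasi-likelihood). Its highest value was in ipilimumab replicate 3, and the groups overlapped.

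The effector genes that marked the population varied among the mice of a group. Gzmb was at 207, 283 and 127 CPM against 233, 164 and 81.7 (log2 fold change -0.35), and Gzmk at 42.8, 57.8 and 46.2 against 24.7, 63.1 and 19.4 (-0.47). Ccl4 was at 272, 266 and 284 CPM against 475, 423 and 219 (0.45), and Zeb2 at 277, 288 and 258 against 592, 351 and 160 (0.43, or -0.10 without ipilimumab replicate 1). In the last 2 genes the ipilimumab mice lay on both sides of the IgG1 mice. Ccl5 itself, which the gate used, was at 8706, 6465 and 8014 CPM of summed UMIs against 10521, 9131 and 5872.

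The smallest p among genes without overlap belonged to Scgb1a1, which encodes the secretoglobin of airway club cells. It was at 9.69, 3.99 and 2.01 CPM in the IgG1 mice and 49.9, 52.7 and 28.0 in the ipilimumab mice (5.23 ± 3.99 against 43.6 ± 13.5, log2 fold change 3.10, SE 0.448, adjusted p = 0.407, edgeR quasi-likelihood). It was the gene that DESeq2 called. Other classes showed the same: B cells had 8.81, 11.7 and 3.87 CPM of summed UMIs against 144, 78.2 and 26.6, and empty droplets 1124, 1943 and 451 against 14557, 13580 and 2524. Scgb3a2, another secretoglobin, gave 9 UMIs in the gated cells of all mice and Foxj1, of ciliated cells, 2. The part of free airway transcripts in this result was not tested.

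Among the other genes without overlap, 9 more were named on the higher side. Chst11, a sulfotransferase, was at 174, 221 and 191 CPM against 296, 267 and 284 (log2 fold change 0.53), Sik2, a kinase, at 135, 142 and 129 against 180, 185 and 199 (0.47), Cetn2, a centriole protein, at 35.5, 37.2 and 35.5 against 52.1, 52.7 and 60.7 (0.61), and Abcb1b, a drug efflux pump, at 210, 282 and 234 against 313, 360 and 380 (0.53). Cdk14 (1.63), Rasgef1a (1.74), Rasal2 (1.55), Clec16a (0.82) and Insr, the insulin receptor (0.69), lay on the same side. Sema4d, a semaphorin of T cells, was at 128, 126 and 125 CPM against 76.8, 92.1 and 78.5 (-0.62, SE 0.136, adjusted p = 0.999, edgeR quasi-likelihood).

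Arhgef3 was at 312, 229 and 388 CPM against 218, 199 and 191 (log2 fold change -0.61). Ifitm3, an antiviral membrane protein, was at 8.07, 57.2 and 9.37 against 4.39, 5.20 and 2.33 (-2.62), a difference that IgG1 replicate 2 enlarged. Ggt1 (-1.43), Napsa (-1.27), Marcksl1 (-1.15), Gmnn, a replication licensing inhibitor (-1.03), Ercc6l2 (-0.89), Pgap1 (-0.82) and Zc3hc1 (-0.79) completed the lower side. None of these passed the adjusted threshold in the main test. Napsa gave 83 UMIs in all gated cells (4.30 to 19.1 CPM of summed UMIs per mouse). It was at 268 to 322 CPM in B cells and 86.6 to 147 in empty droplets. The part of transcripts from other cells in its value was not tested.

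**Figure D5:**
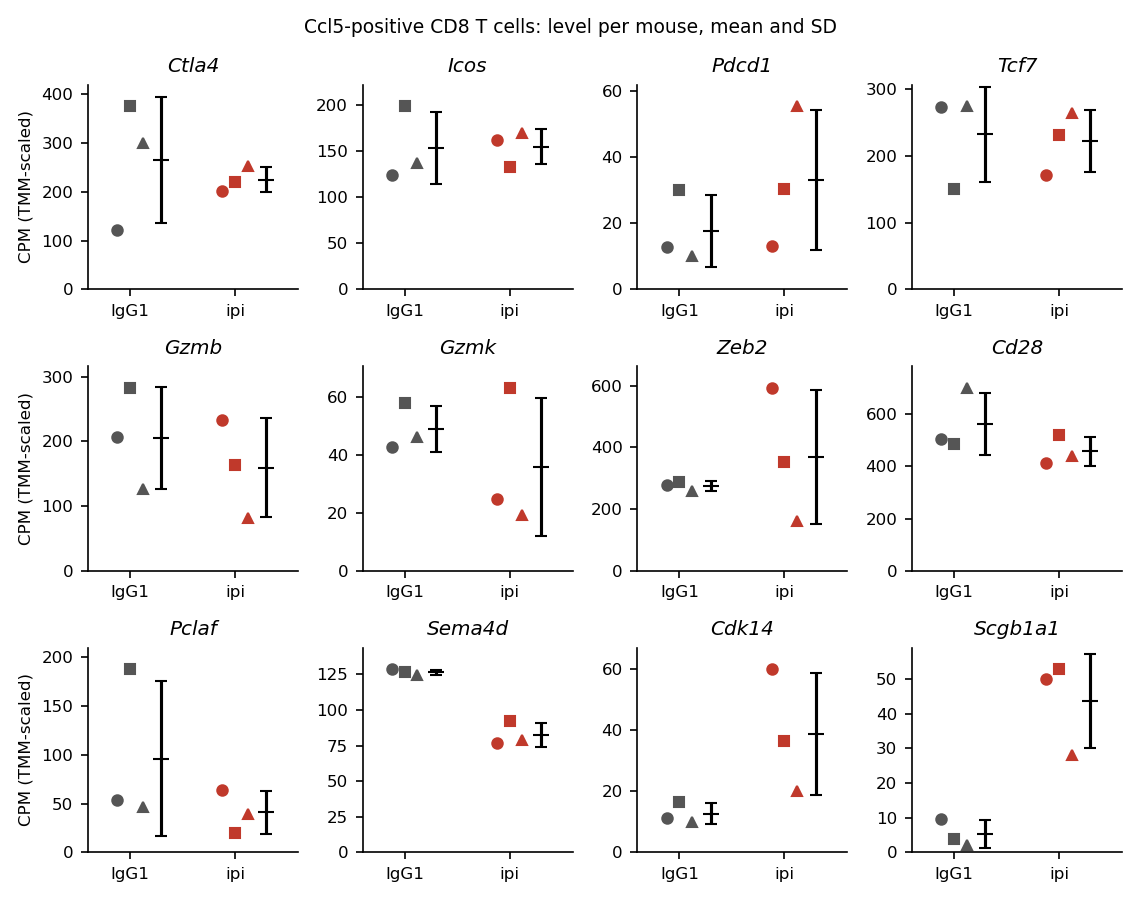
Scaled CPM of 12 genes in Ccl5-positive CD8 T cells of the 3 IgG1 (grey) and 3 ipilimumab (red) mice, with 1 point per mouse and lines for the mean and SD. Scgb1a1 and Sema4d do not overlap between the groups, whereas Ctla4 (122 to 375 against 201 to 254) and Pdcd1 (10.0 to 55.2 over all mice) do.

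Of the 18 gene lists, cell division showed the median farthest from 0, at -0.72 over 18 genes against 0.00 over all genes tested. Mki67, named after its values were seen, was at 42.0, 180 and 48.9 CPM against 65.3, 26.0 and 31.9, and Pclaf, a replication factor, at 54.1, 187 and 46.9 against 63.7, 20.1 and 39.7. Both were high in IgG1 replicate 2, and without that mouse the list median was -0.06. Of the 18 genes, 1 had an unadjusted p under 0.05, and with other mice left out the median lay between -0.98 and -0.70 and 0 to 11 genes did (8 genes and a median of -0.98 without ipilimumab replicate 1, the library that stood apart). NK-type receptors and adaptors had a median of 0.20 over 20 tested genes, with 0 at an unadjusted p under 0.05, and 0.10 to 0.28 with 1 mouse left out, where 0 to 4 genes had such a p (0.10 and 0 genes without ipilimumab replicate 1). Tissue residency genes had a median of 0.17, which became -0.22 without ipilimumab replicate 1. Actin and motility genes had a median of -0.19, with Crip1 at -0.38. That median ran from -0.04 without IgG1 replicate 2 to -0.43 without ipilimumab replicate 1, where 4 genes had an unadjusted p under 0.05 against 1 with all mice. Cytotoxic genes (-0.06), inhibitory receptors (-0.16), costimulatory receptors (0.08), naive and memory genes (0.02) and effector factors (0.02) lay near 0, and none of these lists had more than 1 gene at an unadjusted p under 0.05. With 1 mouse left out, each of these 5 medians took both signs, within -0.36 to 0.20, and at most 3 genes of a list had such a p.

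Shares of Ccl5-positive CD8 T cells with a UMI of 24 state genes were compared after each cell was thinned to 1000 UMIs. No gene passed (smallest adjusted p 0.9 over 24 exact two-sided permutation tests, which allow no unadjusted p below 0.1). Pdcd1 was found in 1.64% ± 0.708 of thinned cells against 4.02% ± 2.23, Ctla4 in 13.3% ± 5.10 against 14.6% ± 5.78, Gzmk in 7.97% ± 2.33 against 4.82% ± 1.44 and Gzma in 30.2% ± 11.3 against 25.8% ± 17.1 (SD, n = 3). At the same thinning, 0% to 0.0575% of B cells had a UMI of Pdcd1 and 0.773% to 2.01% one of Ctla4. Unthinned, Pdcd1 was found in 3.79%, 18.0% and 8.80% against 8.98%, 17.6% and 24.1% of the cells.

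Whether ipilimumab and IgG1 differed more in Ccl5-positive than in Ccl5-zero CD8 T cells was tested as an interaction. No gene was called of 9545 (0%) by edgeR's quasi-likelihood test, with 299 at an unadjusted p under 0.05, and DESeq2 called 0, with 47. The smallest p among named genes was that of Crip1, where the effect was 0.73 lower on the log2 scale in Ccl5-positive cells (SE 0.129, adjusted p of nearly 1, edgeR quasi-likelihood). Ctla4 differed by -0.58 (SE 0.373). Of 18 cell division genes, 10 had an unadjusted p under 0.05, with a median of -0.88, and between 4 and 11 did when 1 mouse was left out. On simulated counts, 31% of 2-fold and 82% of 4-fold differences of this kind were called, again set only in genes with higher counts.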

How the data were processed

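The 6 deposited files hold UMI counts per gene and barcode, not normalized, which the authors made with Cell Ranger on mm10 (version 7.0.0 in the submitters' processing notes, while methods and file headers name other versions). They are unfiltered, and ambient RNA had not been subtracted. Members and gene lists were chosen with earlier results of these data known. Cells were gated as stated, with no doublet caller. Barcodes with 3 or more UMIs of 38 markers of other cell types, or, chosen after seeing the data, 10 or more of 37 (without Pecam1), were left out as alternatives. Counts were summed per mouse and class, and tested with edgeR 4.0.16 (TMM, filterByExpr, quasi-likelihood), in R 4.3.3. DESeq2 1.42.0, other scalings, no filter on low counts, other Ccl5, UMI and mitochondrial limits and each mouse left out were the alternatives. Each sample was taken as 1 mouse, from its replicate number and the methods, and p-values measure the spread between these samples. Intervals cover counting error only.

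Genes named were those of the gate and label, up to 5 per list and comparison, Ctla4, Icos, Pdcd1 and Tcf7, the 10 smallest p in each direction without overlap between treatment groups, the 12 largest called folds in each direction between classes (6 of 6 mice, mean of at least 20 CPM), and the 5 smallest p of the interaction. Gm, Rik, mt- and Rp genes were not named, and a few other genes are not reported here. Exact two-sided permutation tests over mice were used for shares. Positions came from GENCODE mouse release 21 (GRCm38), which matched 32158 of 32285 gene IDs. The tests were run on simulated data first. Software was Python 3.11.15, numpy 2.4.6, pandas 2.3.3 and scipy 1.17.1.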

Additional observations from a re-analysis of the deposited data

Results flagged for a closer look

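For 115 pairs of a named gene and a comparison, the log2 ratio of Ccl5-positive CD8 T cells to the other class, with 1 CPM added, was looked at in each of the 6 mice. In 7 of them 1 mouse stood far from the other 5, where chance gives about 1 in 20. Against Ccl5-zero CD8 T cells, Klrk1 (NKG2D) was at 7.52 in IgG1 replicate 1, against 4.18 to 5.14 in the other mice. The Ccl5-zero cells of that mouse had 0 UMIs of Klrk1, so that the 1 CPM added sets this ratio. Icos was at 1.07 in IgG1 replicate 2, against 0.06 to 0.44, and Xcl1 in the same mouse at 1.26, against 3.77 to 4.27, where Ccl5-zero cells had 0 to 9 UMIs of Xcl1 per mouse. Against NK cells, Fam169b was at 4.71 in ipilimumab replicate 1, against 6.70 to 7.39, and Klra8 at -9.00 in IgG1 replicate 1, against -6.62 to -5.34. These rest on few counts as well, with 4 UMIs of Fam169b in the NK cells of the first mouse against 0 to 1 in the others, and 1 UMI of Klra8 in the CD8 T cells of the second against 10 to 37. Icos was at 3.64 in IgG1 replicate 2, against 2.24 to 2.76, and Nkg7 at -1.48 in ipilimumab replicate 3, against -1.22 to -1.10. In each of the 7 the direction was the same in 6 of 6 mice.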

How the results depend on the processing

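The share of all cells changed its sign with at least 2000 UMIs per cell (0.274 percentage points), after thinning to 1000 UMIs (0.0918) and over mice left out (-0.355 to 0.357). Leaving out 1 mouse gave differences in the share of CD8 T cells between 0.241 and 7.69 points. Genes called for ipilimumab numbered 1 with DESeq2 and after cells with 10 or more UMIs of other markers were left out (Scgb1a1 in both), 123 with no filter on low counts, and 0 to 1 over mice left out (Mctp1, without ipilimumab replicate 3). The interaction gave 62 genes with no filter and 1 under the marker filter of 10 (Hdac9). Mctp1 and Hdac9 were named after their values were seen. Against Ccl5-zero cells DESeq2 called 1278. The causes were not tested. In the treatment contrast, signs turned for Icos with library sizes alone (-0.00624), Tcf7 under the marker filter of 3 (0.28), and, over mice left out, for Ctla4 (-0.58 to 0.084), Icos (-0.12 to 0.24), Tcf7 (-0.30 to 0.094) and Zeb2 (-0.10 to 0.78). None of these passed the threshold. In class comparisons, 52 genes against NK cells kept direction and call in all 567 pairs of gene and setting, and 63 genes against Ccl5-zero cells in 736 of 744, with Cd27 lost under the marker filter of 3 (0.33) and Ctla4 gained in 7.

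Replicate numbers did not pair the mice: deviations from the group means, over genes, correlated between same-numbered mice at -0.20, 0.09 and 0.19. The fit with a replicate block called 0 genes, with 238 at an unadjusted p under 0.05.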
